A study of Sus scrofa with 9 samples.

Results

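The respiratory chain of the pig left ventricle was followed over the first 15 days after birth through the transcripts of its subunits from both genomes. Subunits were taken by gene symbol: the NDUFA, NDUFB, NDUFC, NDUFS and NDUFV series, SDHA to SDHD, the UQCR series and CYC1, the nuclear COX4 to COX8 series, the ATP5 series, cytochrome c (CYCS) and the 13 protein genes of the mitochondrial genome. The rule found 82 of the 22629 rows of the table, 69 of them nuclear and 13 mitochondrial. Complex I had 29 nuclear and 7 mitochondrial subunits, complex II 4 nuclear ones, complex III 5 and 1, complex IV 17 and 3, and complex V 13 and 2. NDUFA4 and NDUFA4L2 were counted with complex IV, where the NDUFA4 protein is found. In 81 of the 82 rows at least 3 libraries reached 1 TPM (a transcript's length-normalised share of its library), and these were tested. The exception was COX7B2, listed at 0.602 TPM in day 0 replicate 6 and at 0 in every other library. The symbols of 6 further subunits (COX5A, NDUFA2, NDUFB1, NDUFB5, UQCR11 and UQCRFS1) stood in the table only as gene identifiers. They were not members by the rule, none of them passed the test in any comparison, and the counts of changed genes were the same with them added.

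The tissue was myocardium of the left ventricle of wild type, untreated pigs at postnatal day 0 (replicates 4, 5 and 6), day 7 (replicates 2, 5 and 6) and day 15 (replicates 1, 2 and 6). No allele or agent set the ages apart. Whether the 3 libraries of an age are 3 pigs is not stated in the labels. The p-values therefore describe the variation among the libraries at hand, which may be technical. In bulk tissue, fewer cells of a type and less RNA per cell cannot be told apart.

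The respiratory chain passes electrons from NADH (through complex I) and succinate (through complex II) to coenzyme Q, on to complex III, then by the small carrier cytochrome c to complex IV and oxygen. Complexes I, III and IV pump protons across the inner mitochondrial membrane, and complex V, the ATP synthase, makes ATP from their return. Complex II is wholly nuclear, whereas the other complexes are assembled from proteins of both genomes, and heart muscle, one of the tissues richest in mitochondria, comes to depend on oxidative metabolism after birth.

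The depth behind the TPM values is unknown. A single unnamed row, ENSSSCG00000032277, took 24.0% to 46.0% of a library's TPM, and since TPM are shares, its level moves every other value. Summed cardiomyocyte markers lay at 50307 to 59364 TPM on day 0, 50370 to 56802 on day 7 and 47356 to 58754 on day 15, with 0 of 9 past the test in any comparison. All 6 skeletal muscle markers were under 1 TPM in every library, and MYF5, MYF6 and PAX7 were at 0. On day 7 the summed markers of endothelium (319 to 349 TPM, against 213 to 250 on day 0 and 199 to 239 on day 15) lay above both other ages. So did the sum for fibroblasts (1346 to 1896, against 789 to 1187 and 1043 to 1228). Of each, 2 of 8 markers were called higher on day 7 against day 0, and 1 endothelial marker was lower. The median fibroblast marker lay 0.20, 0.60 and -0.09 from its 9-library mean (log2) in day 7 replicates 2, 5 and 6. Replicate 6 was thus below day 0 replicate 5 (0.02) and day 15 replicate 2 (0.14). Smooth muscle and pericyte markers summed to 271 to 336 TPM on day 0, 272 to 288 on day 7 and 192 to 229 on day 15, below both other ages, with 3 of 8 lower and 1 higher on day 15 against day 0. Macrophage markers summed to 64.6 to 77.3 TPM on day 0, 66.0 to 117 on day 7 and 59.4 to 242 on day 15, with 1 of 8 higher at each later age. Beside these marker counts, 7.67% of all genes tested were called higher and 8.88% lower on day 7 against day 0. On day 15 against day 0 these shares were 5.53% and 18.4%. The part of these cell types in the subunit results was not tested. The libraries of an age also differed. Day 7 replicate 6 was the lowest of the 9 libraries for 52 of 68 nuclear subunits and the highest for 9 of 13 mitochondrial ones, and day 0 replicate 6 was the highest for 38 nuclear subunits. Atrial marker levels varied the most, from 154 to 2968 TPM over all libraries.

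Summed over each genome, mitochondrial transcripts outweighed nuclear ones by 7.06-fold to 13.6-fold. The 13 mitochondrial mRNAs together took 18.2%, 18.5% and 21.7% of all TPM in the day 0 libraries, between 18.8% and 24.6% on day 7, and 16.5%, 21.0% and 23.3% on day 15. The ages overlapped, and the means of 19.5% ± 1.94, 20.8% ± 3.29 and 20.2% ± 3.46 (SD, n = 3) differed by less than the spread within an age. The nuclear subunits took 2.58%, 2.41% and 2.74% on day 0, then 2.51%, 2.16% and 1.81% on day 7, and 2.15%, 2.39% and 2.21% on day 15. Every day 15 library was below every day 0 library, while day 7 replicate 2 lay within the day 0 range. On the log2 scale the nuclear sum stood at -0.26 on day 7 and -0.20 on day 15 against day 0, with a pooled SD of 0.15 between libraries of an age, and the day 7 value was -0.15 without day 7 replicate 6. The ratio of the mitochondrial to the nuclear sum was 7.54 ± 0.44 on day 0, 9.96 ± 3.18 on day 7 and 8.99 ± 1.45 on day 15. A sum over chosen genes has no p-value here, and the nuclear day 15 value was 0.05 when libraries were scaled by the median of ratios in place of the total.

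**Figure D1:**
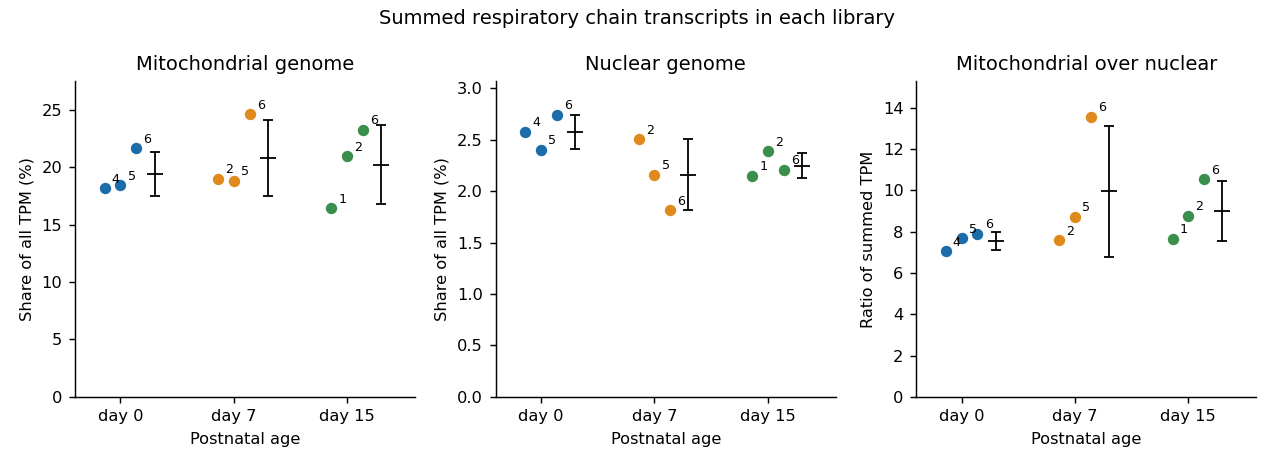
Share of all TPM taken by the 13 mitochondrial (left) and 69 nuclear (middle) respiratory chain genes, in percent, and the ratio of the 2 sums (right), by postnatal age. Points are libraries with their replicate number, and bars are the mean ± SD (n = 3); the day 7 libraries spread widest, with replicate 6 at 24.6% mitochondrial, 1.81% nuclear and a ratio of 13.6.

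Between day 0 and day 7, 10 of the 81 subunits tested fell and 0 rose (limma on log2(TPM + 1), adjusted p under 0.05 over all 12268 genes tested). That is 12.3% of the subunits, beside 16.6% of all genes tested called in either direction, 8.88% called lower and 7.67% called higher. All 10 were nuclear: 7 of complex I, SDHD of complex II, COX6A1 of complex IV and cytochrome c. The median log2 fold change was -0.28 over 68 nuclear subunits and 0.22 over the 13 mitochondrial ones, beside -0.04 over all genes tested. For 27 subunits every day 7 library lay below every day 0 library (33.3%, beside 23.8% of all genes). For 3 every day 7 library lay above (3.70%, beside 17.6%). The 27 include COX6B2, which passed the filter only through its day 0 libraries. Single libraries weighed on this count: 2 subunits were called without day 0 replicate 6, 4 without day 0 replicate 4, 3 without day 7 replicate 6 and 6 without day 7 replicate 5. Without day 7 replicate 6 the nuclear median was -0.15 and the mitochondrial median 0.04. With other scalings the calls split into 1 higher and 12 lower (median of ratios), 4 and 9 (quantile normalization, with ND1 and ND5 among the higher) or 2 and 11 (totals without mitochondrial genes and the 20 most abundant rows).

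Between day 7 and day 15 no subunit passed the test, beside 0.171% of all genes, and 1 had an unadjusted p under 0.05. With library weights in the limma fit, whose weights did not converge fully, 9 subunits were called. No subunit had day 7 and day 15 libraries free of overlap, beside 19.4% of all genes. The median log2 fold change was 0.02 for nuclear and -0.23 for mitochondrial subunits, beside -0.15 for all genes.

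Day 15 was then compared with the same 3 day 0 libraries, so the 2 comparisons with day 0 are not independent. Against day 0, 12 of the 81 subunits were lower and 1 was higher on day 15. The called share was 16.0%, beside 23.9% of all genes (18.4% lower and 5.53% higher). Libraries did not overlap for 37 subunits that were lower (45.7%, beside 30.5% of all genes) and 3 that were higher (3.70%, beside 9.45%). COX6B2 is in both counts of lower subunits, although it passed the filter only through its day 0 libraries. The nuclear median was -0.24, the mitochondrial median -0.02 and the median of all genes -0.19. Without day 0 replicate 6 only 3 subunits were called, without day 15 replicate 6 it was 5, and without day 0 replicate 4 or day 15 replicate 1 it was 8. Scaling mattered here too: the median of all genes was 0.01 with median-of-ratios scaling, where the nuclear median was -0.00 and the calls split into 3 higher and 7 lower. Quantile normalization gave 7 higher and 6 lower, and totals without mitochondrial genes and the 20 most abundant rows gave 4 and 7.

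**Figure D2:**
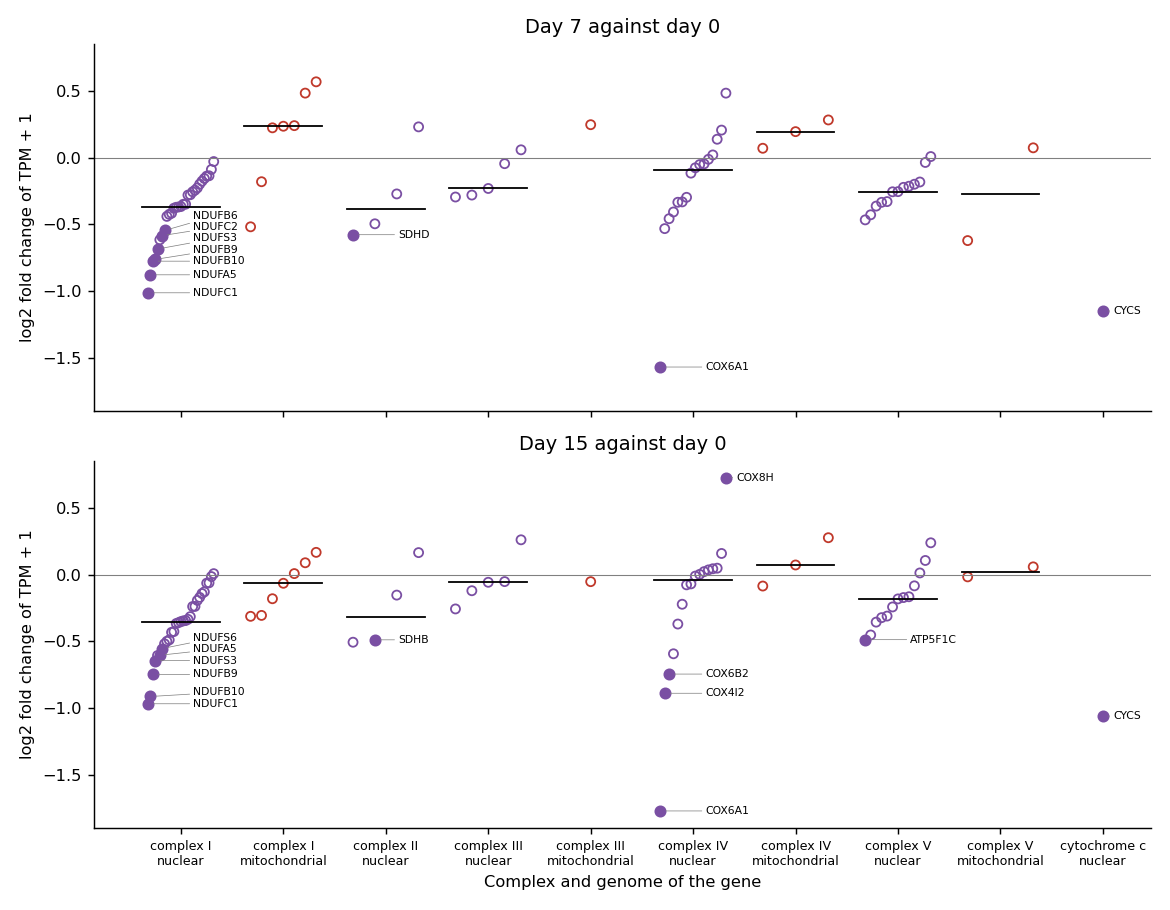
Log2 fold change of TPM + 1 for each subunit (points, sorted within a complex and genome; purple nuclear, red mitochondrial), on day 7 (top) and day 15 (bottom) against day 0. Filled, labelled points had a limma adjusted p under 0.05 and horizontal bars are group medians; all 29 nuclear complex I points lie below 0 on day 7 on the TPM scale (22 to 28 of them with other scalings), and no mitochondrial point is filled.

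Of the 29 nuclear subunits of complex I, 7 were called lower on day 7 against day 0 (24.1%, beside 8.88% of all genes) and 6 on day 15 (20.7%, near the 18.4% of all genes), with 0 higher. The day 7 count was 0 without day 0 replicate 6, 1 without day 7 replicate 6, 2 without day 0 replicate 4 and 3 without day 7 replicate 5. The day 15 count was 1 without day 0 replicate 6, 2 without day 15 replicate 6, 3 without day 0 replicate 4 and 4 without day 15 replicate 1 or day 7 replicate 5, and 3 of the 4 other scalings gave 3. The log2 fold change was negative for all 29 on day 7 (53.8% of all genes) and for 28 on day 15 (65.1%), with medians of -0.37 and -0.35 beside -0.04 and -0.19. These signs depend on the scaling: with the 4 other scalings 22 to 28 of the 29 were negative on day 7, with medians of -0.31 to -0.14, and 18 to 23 on day 15, with medians of -0.20 to -0.07. On the TPM scale the libraries overlapped with day 0 for 14 of the 29 on day 7 and for 9 on day 15. The rest lay lower without overlap: 15 on day 7 (51.7%, beside 23.8% of all genes) and 20 on day 15 (69.0%, beside 30.5%). Overlap was not counted with other scalings.

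The core subunits of the complex carry the electron path, and accessory subunits surround them. Of the nuclear core subunits NDUFS3 was called on day 7. The others did not pass, and of these NDUFV2, an iron-sulphur subunit, had a log2 fold change of -0.42. NDUFS1, also an iron-sulphur subunit, was at 183 ± 6.23 TPM on day 0, 165 ± 18.9 on day 7 and 176 ± 16.6 on day 15 (n = 3 each) and did not pass the test.

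NDUFB10, a membrane arm subunit, was at 102, 88.1 and 111 TPM in the day 0 libraries, at 74.6, 55.1 and 47.4 on day 7 and at 53.1, 58.0 and 47.4 on day 15. No later library reached the day 0 range. It fell by 0.78 ± 0.19 (SE) on the log2 scale on day 7 (limma adjusted p = 0.0211) and by 0.91 ± 0.19 on day 15 (limma adjusted p = 0.0081). The day 15 call held in all 22 alternatives, with limma adjusted p from 9.43e-05 to 0.0498. The day 7 call was lost without day 0 replicate 4 (0.0749) or 6 (0.0997) or day 7 replicate 5 (0.0583) or 6 (0.0723), in a range of limma adjusted p from 0.0121 to 0.0997.

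NDUFB9, the most abundant nuclear subunit of complex I, had 714, 631 and 729 TPM on day 0, 506, 406 and 327 on day 7, and 429, 415 and 389 on day 15. The day 0 libraries stood apart above the others. Its log2 fold change was -0.76 ± 0.18 on day 7 (limma adjusted p = 0.0173) and -0.75 ± 0.18 on day 15 (limma adjusted p = 0.0129). On day 7 the limma adjusted p was 0.0696 without day 0 replicate 4, 0.083 without day 0 replicate 6 and 0.0519 without day 7 replicate 6 (range 0.00951 to 0.083). On day 15 it was 0.0661 without day 0 replicate 6 and 0.0574 without day 15 replicate 6 (range 0.000266 to 0.0805).

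NDUFC1, a small membrane arm subunit and the least abundant of the nuclear complex I transcripts, was at 17.9, 22.1 and 28.4 TPM on day 0, at 11.58, 10.04 and 10.24 on day 7, and at 7.45, 12.7 and 13.8 on day 15. Later libraries all lay below the day 0 libraries. The log2 fold change was -1.01 ± 0.23 on day 7 (limma adjusted p = 0.0159) and -0.97 ± 0.23 on day 15 (limma adjusted p = 0.0131). Without day 0 replicate 6 these became 0.0843 and 0.0732, and without day 7 replicate 6 the first was 0.052. Over the alternatives the limma adjusted p ran from 0.00425 to 0.0843 on day 7 and from 0.00388 to 0.0732 on day 15.

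NDUFA5, an accessory subunit of the arm that faces the matrix, was at 30.0, 31.0 and 45.1 TPM on day 0, at 18.7, 18.2 and 18.6 on day 7, and at 17.8, 26.0 and 24.7 on day 15. The day 7 libraries were within 1 TPM of each other, below all day 0 libraries. On day 7 it fell by 0.88 ± 0.20 on the log2 scale (limma adjusted p = 0.0157), a call lost without day 0 replicate 6 (0.0814; range 0.0033 to 0.0814). The day 15 value of -0.60 ± 0.20 was just past the threshold (limma adjusted p = 0.0478) and lost it in 12 of 22 alternatives, 7 of which left out 1 library (day 0 replicate 4 or 6, any day 7 replicate, or day 15 replicate 1 or 6), with limma adjusted p up to 0.213.

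Core subunit NDUFS3 fell by 0.68 ± 0.19 on day 7 (limma adjusted p = 0.0301) and by 0.64 ± 0.19 on day 15 (limma adjusted p = 0.028), from 46.5 ± 5.54 TPM (n = 3) to 28.9 ± 6.64 and 29.3 ± 1.30. It and the next 3 were named after their values were seen. NDUFB6 (-0.55, limma adjusted p = 0.0451) and NDUFC2 (-0.58, 0.0456), both of the membrane arm, passed on day 7 alone, and NDUFS6 (-0.55, 0.044), an accessory subunit of the matrix arm, on day 15 alone. Each of the 4 lost a call when single libraries were left out. Among these removals the limma adjusted p was highest without day 0 replicate 6: 0.124 (day 7) and 0.12 (day 15) for NDUFS3, 0.176 for NDUFB6, 0.184 for NDUFC2 and 0.182 for NDUFS6. The libraries whose removal ended the call were day 0 replicates 4 and 6 with day 7 replicates 5 and 6 (day 7) or day 15 replicate 6 (day 15) for NDUFS3, all 5 of these for NDUFB6, all but day 15 replicates 1 and 2 for NDUFC2, and all 3 of day 0, day 7 replicate 5 and day 15 replicates 1 and 6 for NDUFS6. The day 15 call of NDUFS3 was also lost with each of the 4 other scalings (limma adjusted p up to 0.154). That of NDUFS6 was lost with all of them but totals without the most abundant row. Quantile normalization ended the day 7 calls of NDUFS3 and NDUFB6. The replicate block ended every call of the 4 genes (limma adjusted p = 0.187 for NDUFS6).

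**Figure D3:**
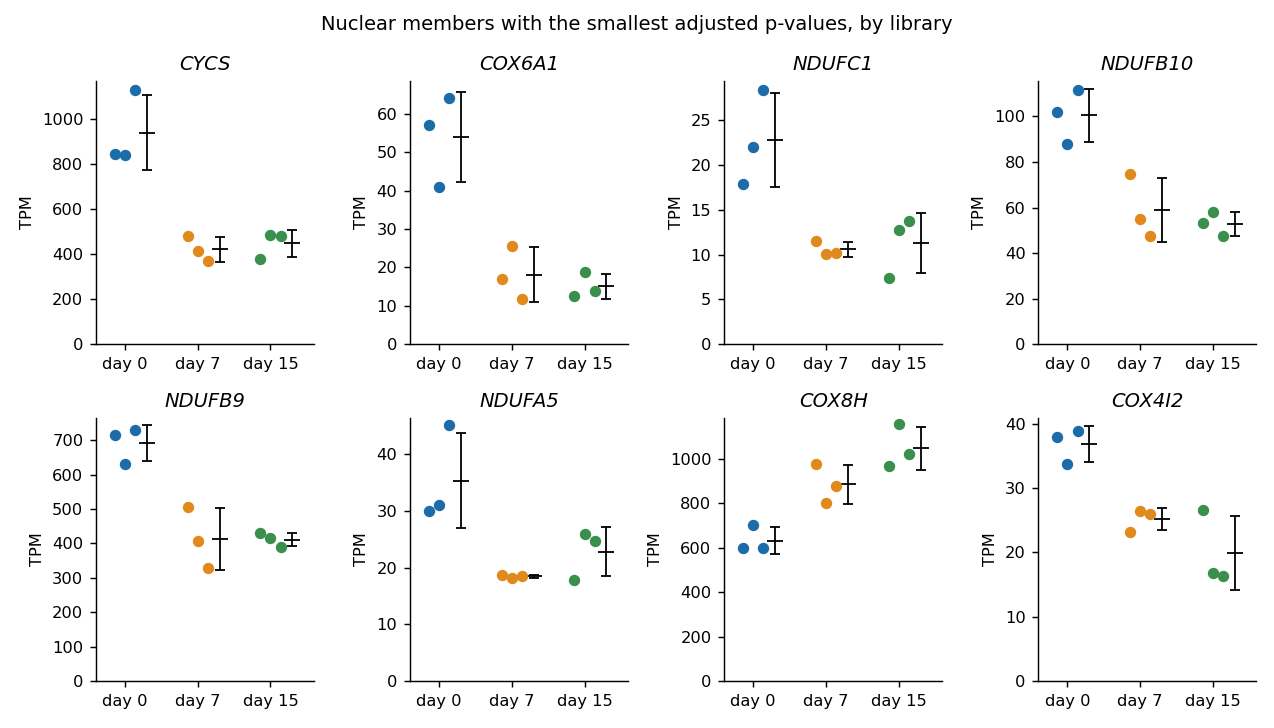
TPM in each library by postnatal age for the 8 nuclear subunits with the smallest adjusted p-values; points are libraries and bars the mean ± SD (n = 3). COX8H alone is higher at the later ages, at 967 to 1157 TPM on day 15. For CYCS, COX6A1, NDUFC1, NDUFB10, NDUFB9, NDUFA5 and COX4I2 no later library reaches the day 0 range.

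Complex II, succinate dehydrogenase, has a catalytic pair (SDHA, SDHB) and a pair of membrane anchors (SDHC, SDHD). The anchors had values of opposite sign, a difference that was not tested. SDHD was at 268, 260 and 312 TPM on day 0, at 181, 206 and 175 on day 7, and at 161, 234 and 201 on day 15, with no overlap between day 0 and either later age. It fell by 0.58 ± 0.18 on day 7 (limma adjusted p = 0.0453) and stood at -0.51 ± 0.18 on day 15 (limma adjusted p = 0.057). SDHC was at 106, 114 and 106 TPM on day 0 and at 127, 144 and 114 on day 7, just above the day 0 range, with 98.9, 145 and 126 on day 15. It did not pass (0.23 ± 0.18 and 0.17 ± 0.18, limma adjusted p = 0.377 and 0.517). SDHC was called higher at both ages with quantile normalization and with totals without mitochondrial genes and the 20 most abundant rows. With median-of-ratios scaling it was called higher on day 15 alone.

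SDHB, the iron-sulphur subunit, was at 175, 149 and 188 TPM on day 0, 131, 123 and 108 on day 7 and 110, 131 and 123 on day 15. All later libraries lay below day 0, and the day 15 value (-0.49 ± 0.16, limma adjusted p = 0.0488) passed while the day 7 value of the same size (-0.49 ± 0.16, 0.0573) did not. SDHA, the flavoprotein and the most abundant subunit of the complex, was at 405 ± 56.2, 335 ± 40.2 and 363 ± 34.6 TPM (n = 3), within overlapping ranges. The calls of SDHD and SDHB were fragile. The SDHD call was lost in 10 of 22 alternatives, with limma adjusted p up to 0.176, and 7 of these left out 1 library (all but day 15 replicates 1 and 2). The SDHB call was lost in 14 of 22, with limma adjusted p up to 0.275. Of these, 6 left out 1 library (day 0 replicate 4 or 6, day 7 replicate 2 or 5, day 15 replicate 1 or 6), up to 0.189. Median-of-ratios scaling, quantile normalization and totals without mitochondrial genes and the 20 most abundant rows also ended the SDHB call.

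Complex III, which passes electrons from coenzyme Q to cytochrome c, had 0 of 5 nuclear subunits past the test in each comparison. Its medians were -0.23 on day 7 and -0.06 on day 15 against day 0. CYC1, the cytochrome c1 subunit, was at 588, 554 and 646 TPM on day 0, 612, 483 and 397 on day 7, and 486, 518 and 490 on day 15. Only the day 15 libraries lay wholly below day 0, and the change of -0.26 ± 0.18 did not pass (limma adjusted p = 0.308). UQCRC1, a core protein, was at 440 ± 57.0, 457 ± 36.3 and 532 ± 100 TPM, UQCR10, a small subunit and the most abundant nuclear one of the complex, at 616 ± 19.5, 512 ± 120 and 569 ± 57.7 TPM (n = 3 each). The absence of calls depended on the fit. With each of the 4 other scalings and with library weights, UQCRC1 was called higher on day 15 against day 0. UQCRQ was also called higher there with quantile normalization.

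Cytochrome c, which docks on complex III and complex IV in turn, showed one of the clearest changes among all members. CYCS was at 846, 839 and 1130 TPM on day 0, at 482, 412 and 369 on day 7 and at 379, 483 and 481 on day 15. All 6 later libraries lay below the lowest day 0 library, and days 7 and 15 overlapped. It fell by 1.15 ± 0.19 on the log2 scale by day 7 (limma adjusted p = 0.00462) and by 1.06 ± 0.19 by day 15 (limma adjusted p = 0.00383), with 0.09 ± 0.19 between day 7 and day 15 (limma adjusted p = 0.871). Both calls held in all 22 alternatives, with limma adjusted p from 0.00152 to 0.034 on day 7 and from 0.000112 to 0.0369 on day 15. The difference between the first step and the second was -1.24 ± 0.32 (limma adjusted p = 0.0737). No member passed that test of steps, beside 1.92% of all genes, and 8 had an unadjusted p under 0.05, but CYCS passed it without day 0 replicate 5 and, with 1 to 3 other subunits, under each of the 4 scalings tried.

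Complex IV, cytochrome c oxidase, held calls in both directions. Its nuclear median was -0.10 on day 7 and -0.04 on day 15. On day 7 1 of 16 tested subunits was called lower (6.25%, beside 8.88% of all genes). On day 15 3 were lower (18.75%, near the 18.4% of all genes) and 1 was higher (6.25%, near 5.53%). COX6B2, 1 of the 3 lower, passed the filter only through its day 0 libraries, so its call is no more than a description. The 4 called on day 15 are COX6A1, COX4I2, COX6B2 and COX8H, each 1 of several isoforms of a subunit, and isoforms are known to differ between heart and other tissues. The subunits with a single gene in the list, such as COX5B (397 ± 20.4, 372 ± 80.6 and 410 ± 11.0 TPM), COX6C (119 ± 7.59, 115 ± 9.67 and 112 ± 0.23) and COX7C (158 ± 5.94, 154 ± 18.5 and 152 ± 25.1, n = 3 each), did not pass in any comparison on the TPM scale. With quantile normalization COX5B was called higher on day 15 against day 0. NDUFA4 was at 1282 ± 68.1, 1221 ± 134 and 1314 ± 36.8 TPM.

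COX6A1, the form of subunit 6A found in most tissues, was at 57.0, 41.1 and 64.0 TPM on day 0, at 17.0, 25.7 and 11.6 on day 7, and at 12.7, 18.7 and 13.8 on day 15. The day 0 libraries stood well above all later ones. It fell by 1.57 ± 0.27 on the log2 scale on day 7 (limma adjusted p = 0.00563) and by 1.77 ± 0.27 on day 15 (limma adjusted p = 0.00214), and both calls held in all 22 alternatives (limma adjusted p from 0.00165 to 0.0397 and from 1.95e-05 to 0.0416). COX6A2, the heart and skeletal muscle form of the same subunit, was at 98.2, 98.4 and 104 TPM on day 0, at 132, 100 and 102 on day 7, and at 117, 117 and 102 on day 15. The ages overlapped and it did not pass (0.14 ± 0.16 and 0.16 ± 0.16, limma adjusted p = 0.574 and 0.497).

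COX8H is the heart and muscle form of subunit 8. On the TPM scale without library weights it was the only member called higher on day 15 against day 0. Its day 0 libraries had 598, 701 and 599 TPM, the day 7 libraries 977, 803 and 877, and the day 15 libraries 967, 1157 and 1021. All later libraries were above day 0. On day 7 the log2 fold change of 0.48 ± 0.16 missed the threshold (limma adjusted p = 0.0565), and by day 15 it rose by 0.73 ± 0.16 (limma adjusted p = 0.00919). With each of the 4 other scalings COX8H was called on day 7 too. The day 15 call was lost in 2 of 22 alternatives, 1 of them without day 0 replicate 6 (0.0532), in a range from 0.000252 to 0.149. With each of the 4 other scalings UQCRC1 was also called higher on day 15. So was SDHC, except with totals without the most abundant row. Quantile normalization added ATP5IF1, COX5B, COX7B and UQCRQ, and totals without mitochondrial genes and the 20 most abundant rows added ATP5IF1. COX8A, the form found in most tissues, was at 342, 317 and 380 TPM, then 397, 241 and 215, then 278, 277 and 248. The day 7 libraries spanned the range of both other ages, and COX8A did not pass (-0.37 ± 0.22 on day 15, limma adjusted p = 0.225).

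COX4I2, a form of subunit 4 known from lung and from its response to low oxygen, was at 38.1, 33.8 and 39.0 TPM on day 0, 23.3, 26.5 and 26.0 on day 7, and 26.7, 16.8 and 16.4 on day 15. Every later library was lower than every day 0 library. It was called on day 15 (-0.89 ± 0.20, limma adjusted p = 0.00938) and not on day 7 (-0.53 ± 0.20, 0.0813). The day 15 call was lost without day 0 replicate 6 (0.0516), without day 15 replicate 6 (0.0501) and under 3 scalings, with limma adjusted p up to 0.0934. The summed smooth muscle and pericyte markers were also lower on day 15, and their part in this value was not tested. COX4I1, the main form and the most abundant nuclear transcript of the complex, was at 1719 ± 183, 1373 ± 240 and 1471 ± 82.4 TPM (n = 3) and did not pass.

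COX6B2, known as the testis form of subunit 6B, lay near the floor of the data at 1.08, 1.48 and 1.33 TPM on day 0, 0.895, 0.643 and 0.654 on day 7 and 0.0766, 0.749 and 0.353 on day 15. It passed the filter only through its 3 day 0 libraries, so it had to differ from them and its call is no more than a description. The day 15 call (-0.74 ± 0.20, limma adjusted p = 0.0201) was lost without day 0 replicate 6 (0.0776) and without either day 15 replicate 1 (0.0678) or replicate 6 (0.0664), with limma adjusted p up to 0.137.

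Of 9 isoform pairs, 7 had both members above the filter, and each was tested by an exact permutation test of the log2 ratio over all 1680 assignments of the 9 libraries to 3 ages. No pair passed after Benjamini-Hochberg adjustment over the 7. COX8H took 64.6% ± 3.92 of the summed TPM of COX8H and COX8A on day 0, 76.1% ± 4.64 on day 7 and 79.6% ± 1.68 on day 15 (exact permutation p = 0.00714, adjusted 0.05, at the threshold and not under it). COX6A2 took 65.2% ± 4.66, 86.0% ± 5.52 and 88.2% ± 2.03 of its pair (exact permutation p = 0.025, adjusted 0.0875). In both pairs every day 7 and day 15 library was above every day 0 library.

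The heart form COX7A1 lay in overlapping ranges and did not pass. It took 27.3% of its pair with COX7A2 on day 0, 31.5% on day 7 and 27.5% on day 15 (exact permutation p = 0.171, adjusted 0.2), and the transcript was at 164 ± 6.85, 164 ± 15.1 and 167 ± 3.54 TPM (n = 3). The ratio of COX4I1 to COX4I2 (exact permutation p = 0.0643, adjusted 0.113) and that of NDUFA4 to NDUFA4L2 (0.129, adjusted 0.18) did not pass. ATP5MC1, ATP5MC2 and ATP5MC3 encode the same c-ring protein of complex V with different import sequences. Against ATP5MC3, ATP5MC2 gave an exact permutation p of 0.0643 (adjusted 0.113) and ATP5MC1 one of 0.314.

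**Figure D4:**
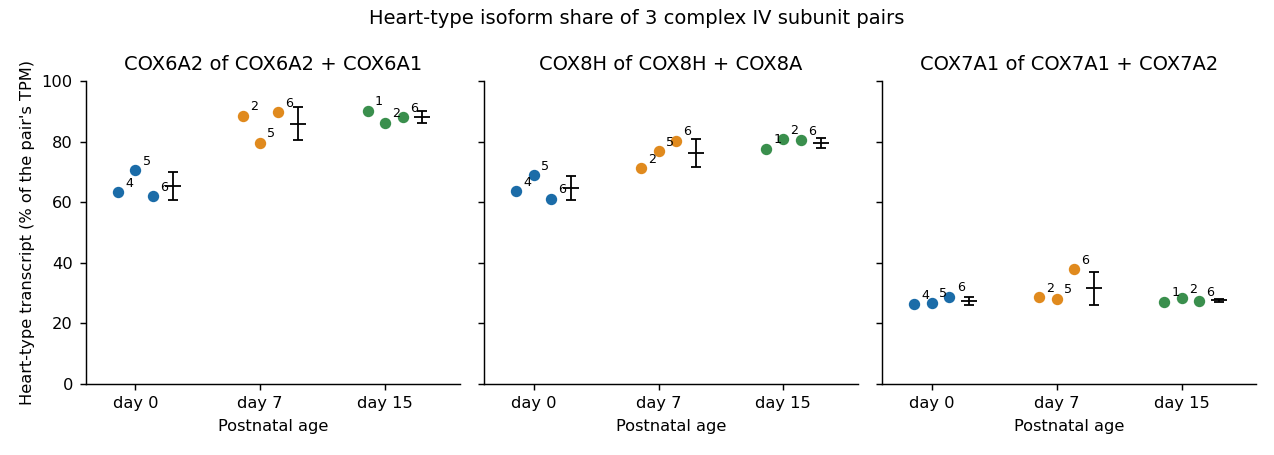
Share of the heart-type transcript in the summed TPM of its isoform pair, in percent, by postnatal age, for COX6A2, COX8H and COX7A1. Points are libraries with their replicate number and bars the mean ± SD (n = 3); COX6A2 and COX8H lie higher on days 7 and 15 than on day 0, and the COX7A1 means lie at 27.3%, 31.5% and 27.5%.

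Complex V had 0 of 13 nuclear subunits called on day 7 (beside 8.88% of all genes called lower) and 1, lower, on day 15 (7.69%, beside 18.4%), with medians of -0.25 and -0.18. The call was ATP5F1C, the rotating gamma subunit of the central stalk. It was at 407, 342 and 402 TPM on day 0, 306, 311 and 241 on day 7 and 266, 279 and 273 on day 15, all later libraries below day 0. The log2 fold change was -0.43 ± 0.16 on day 7 (limma adjusted p = 0.0886) and -0.49 ± 0.16 on day 15 (limma adjusted p = 0.0478). The day 15 call was lost in 14 of 22 alternatives, among them those without each library other than day 0 replicate 5 and day 7 replicate 6, with limma adjusted p up to 0.327.

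Among the c-ring genes all day 15 libraries were below all day 0 libraries for each of the 3 (as for 30.5% of all genes), but none passed. ATP5MC3, the most abundant, was at 1517, 1441 and 1682 TPM on day 0, 1377, 1099 and 923 on day 7, and 1059, 1222 and 1110 on day 15 (-0.45 ± 0.18 on day 15, limma adjusted p = 0.0809). ATP5MC1 was at 611 ± 68.1, 485 ± 139 and 491 ± 13.5 TPM, and ATP5MC2 at 544 ± 32.4, 467 ± 30.7 and 428 ± 66.4 (n = 3 each). ATP5F1E, the small epsilon subunit and the most abundant nuclear member of all, was at 1729 ± 112, 1497 ± 184 and 1524 ± 75.0 TPM. ATP5IF1, the inhibitor that blocks ATP hydrolysis by the enzyme, was at 537, 594 and 561 TPM on day 0 and at 620, 747 and 636 on day 15, with no overlap and without passing (0.24 ± 0.18, limma adjusted p = 0.345). It was called higher on day 15 with quantile normalization and with totals without mitochondrial genes and the 20 most abundant rows. The 3 peripheral stalk genes ATP5PB, ATP5PF and ATP5PO had log2 fold changes of -0.08, -0.24 and -0.17 on day 15.

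None of the 13 mitochondrial subunits was called in any comparison. At an unadjusted p under 0.05 there was 1 on day 7 against day 0, 1 on day 15 against day 7 and 0 on day 15 against day 0. Under quantile normalization ND1 and ND5 were called higher on day 7. By mean level over all libraries, the transcripts ran from ND5 at 3834 TPM to COX1 at 44328 TPM. COX1 to COX3 (at least 23459 TPM) and ATP8 and ATP6 (22066 and 28888) stood above CYTB (10930) and the ND genes (up to 8343, ND6). Nuclear subunits of complexes I, IV and V had median levels of 161, 155 and 596 TPM. All these levels are per length.

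ND1, a core membrane subunit of complex I, was at 5281, 4541 and 5740 TPM on day 0, 8780, 5225 and 9799 on day 7, and 5543, 5412 and 5529 on day 15. High values came from 2 day 7 libraries, while replicate 5 lay within the day 0 range. The log2 fold change on day 7 was 0.57 ± 0.22 (limma adjusted p = 0.0933), and ND1 was called without day 7 replicate 5. ND5, also of complex I, was at 2892, 3277 and 3466 TPM, then 4096, 3697 and 5941, then 2647, 3584 and 4905. It was the only mitochondrial transcript with day 7 libraries all above day 0 (0.48 ± 0.24, limma adjusted p = 0.174). COX1, the catalytic subunit of complex IV, was at 40559 ± 2586, 43018 ± 7449 and 49406 ± 6827 TPM (n = 3), and CYTB, the quinone-binding subunit of complex III, at 10359 ± 831, 12398 ± 2143 and 10033 ± 1398 TPM.

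Neighbouring mitochondrial genes on the same mRNA did not keep a fixed ratio. ATP8 and ATP6 overlap and share 1 transcript, as do ND4L and ND4. ATP8 was at 19844, 23686 and 28527 TPM on day 0, 9069, 21738 and 18710 on day 7 and 16715, 28644 and 31658 on day 15, while ATP6 was at 26149, 26789 and 32231, then 28698, 25099 and 36596, then 23676, 29709 and 31048. The ratio of ATP8 to ATP6 was 0.76, 0.88 and 0.89 on day 0, 0.32, 0.87 and 0.51 on day 7 and 0.71, 0.96 and 1.02 on day 15, a 3.23-fold range with day 7 replicate 2 lowest. ND4L to ND4 ran from 0.34 to 0.80, a 2.38-fold range, again lowest in day 7 replicate 2. Between separate mRNAs, ND3 to COX3 varied 1.37-fold, ND2 to ND1 1.60-fold, COX2 to COX1 1.84-fold and COX3 to COX1 1.87-fold. The assignment of reads from overlapping genes is not described in the labels, so the values of ATP8, ATP6, ND4L and ND4 are uncertain one by one, and so is ND6, which lies on the opposite strand.

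**Figure D5:**
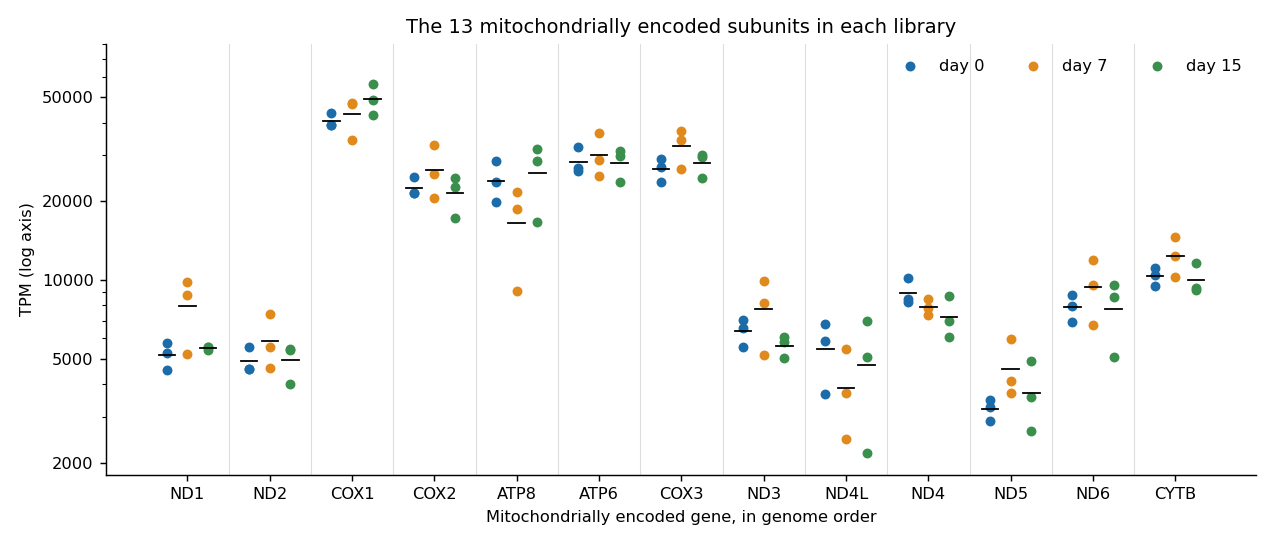
TPM on a log axis of each of the 13 mitochondrial subunits, in genome order, with 1 point per library, colour for postnatal age and bars for the mean of 3 libraries. Ages overlap for all genes but ND5 (day 7 above day 0), and ATP8 and ND4L spread more than their neighbours ATP6 and ND4.

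Spread between libraries was wider in the mitochondrial genome. The median coefficient of variation was 9.22% on day 0, 16.1% on day 7 and 8.25% on day 15 over 68 nuclear subunits, and 11.6%, 24.5% and 16.7% over the 13 mitochondrial ones. Day 15 replicate 1 was the lowest library for 8 mitochondrial subunits, and it was the library with 46.0% of TPM in the top row.

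Genes that assemble or serve the chain were counted by lists of known function. On day 7 against day 0 the lists stand beside 8.88% of all genes called lower and a median of -0.04, and on day 15 beside 18.4% and -0.19. No list had a member called between day 7 and day 15. Of 16 complex I assembly factors, 4 were lower and 0 higher on day 7 and again on day 15 against day 0, with medians of -0.17 and -0.27. NDUFAF5, which hydroxylates a core subunit, was at 35.8, 22.5 and 36.0 TPM on day 0, 13.7, 14.1 and 9.23 on day 7 and 9.69, 10.6 and 11.9 on day 15, without overlap with day 0. It fell by 1.28 on day 7 and by 1.44 on day 15 (limma adjusted p = 0.00576 and 0.00224). NDUFAF4 (-1.12 and -1.27) and TIMMDC1 (-1.16 and -1.06), a membrane factor, also fell, and the 6 calls of these 3 genes held in all 22 alternatives. ECSIT, the most abundant of the list, did not pass (156 ± 14.6, 127 ± 26.7 and 130 ± 4.38 TPM, n = 3).

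Of 26 assembly factors for complexes II to V, 6 were lower on day 7 and 5 on day 15, with 0 higher and medians of -0.18 and -0.27. The day 15 count lies near the 18.4% of all genes called lower. COX10, an enzyme on the path to the heme A of complex IV, went from 18.3 ± 2.87 to 10.5 ± 1.60 and 9.46 ± 1.34 TPM (n = 3). Its log2 fold changes were -0.75 and -0.88. BCS1L, which inserts the iron-sulphur protein into complex III, changed by -0.89 and -0.77, and SDHAF1, a complex II factor, by -0.94 and -0.89. All these calls were lost without day 0 replicate 6, with limma adjusted p of 0.0506 to 0.105. Other single libraries ended a call as well (limma adjusted p of 0.0503 to 0.0831): on day 7 day 0 replicate 4 and day 7 replicate 6 for all 3 genes and day 7 replicate 2 for COX10, and on day 15 day 15 replicate 6 for BCS1L and SDHAF1 and day 0 replicate 4 or day 15 replicate 1 for SDHAF1. COX17, the copper chaperone and most abundant of the list, was at 252 ± 15.4, 263 ± 38.8 and 283 ± 18.3 TPM and did not pass.

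Of 24 genes for replication, transcription and transcript stability of mitochondrial DNA, 7 were lower on day 7 and 9 on day 15, with 0 higher and medians of -0.39 and -0.43. TFB2M, the transcription initiation factor, was at 7.60, 5.84 and 8.68 TPM on day 0, at 3.74, 3.76 and 2.88 on day 7 and at 2.61, 3.44 and 3.46 on day 15, with no overlap with day 0. It fell by 0.90 and by 1.00 (limma adjusted p = 0.0111 and 0.0054), and the day 7 call was lost without day 0 replicate 6 (0.0639) or day 7 replicate 6 (0.0501). SLIRP, which stabilises mitochondrial mRNAs, fell by 0.68 and by 0.85 from 184 ± 14.4 TPM (n = 3), the first call lost without day 0 replicate 4 (limma adjusted p = 0.0657) or 6 (0.0759). The mitochondrial mRNAs themselves had no call in these comparisons. Of 63 mitochondrial ribosomal proteins, which build the ribosome that translates them, 15 were lower on day 7 and 18 on day 15 with 0 higher and medians of -0.35 and -0.39, MRPS33 among them (-1.10 at both ages, held in all 22 alternatives).

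Of 13 genes that shape the cristae, the folds that hold the chain, 8 were lower on day 7 and 5 on day 15, with 0 higher and medians of -0.65 and -0.50. CHCHD3, of the complex at the necks of the cristae, went from 185 ± 31.1 to 101 ± 8.55 and 97.5 ± 8.90 TPM (n = 3), by -0.86 and -0.91 on the log2 scale (limma adjusted p = 0.00999 and 0.0054), and the first call was lost without day 0 replicate 6 (0.0586). The prohibitins PHB (-0.82 and -0.93) and PHB2 (-0.87 and -0.88), which form ring scaffolds in the inner membrane, were called at both ages. The day 7 calls were lost without day 0 replicate 4 (limma adjusted p = 0.0545 for PHB and 0.0517 for PHB2) or 6 (0.0839 and 0.0753) and, for PHB, day 7 replicate 6 (0.0534), and the day 15 call of PHB2 without day 0 replicate 6 (0.0531).

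Coenzyme Q synthesis had 1 of 12 genes lower on day 7, and 3 lower and 1 higher on day 15, with medians of -0.21 and -0.08. The day 7 count lies near the 8.88% of all genes called lower. PDSS1, which builds the side chain of the quinone, was at 36.9, 27.3 and 38.6 TPM on day 0, 17.5, 12.2 and 10.8 on day 7 and 10.7, 8.71 and 8.89 on day 15. It fell by 1.29 and by 1.75 on the log2 scale (limma adjusted p = 0.00462 and 0.000783), calls that held in all 22 alternatives. COQ9, a lipid-binding protein of the same pathway, rose by 0.79 by day 15 (limma adjusted p = 0.0101), from 91.1, 112 and 99.4 TPM to 145, 195 and 190. That call was lost without day 0 replicate 6 (0.0516) or day 15 replicate 6 (0.0507).

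Of 5 carriers and channels that move ADP, ATP and phosphate, 2 were lower at both ages and 0 higher, with medians of -0.45 and -0.39. SLC25A4, the heart and muscle ADP/ATP carrier, was at 5310, 3538 and 5831 TPM on day 0, 3194, 2494 and 2263 on day 7, and 3129, 3056 and 2587 on day 15, above every nuclear subunit of the chain in mean level. It changed by -0.87 and -0.72 (limma adjusted p = 0.0199 and 0.0301), in 6 and 10 of 22 alternatives without passing. Leaving out day 0 replicate 4 or 6 ended both calls (0.0839 and 0.105 on day 7, 0.103 and 0.151 on day 15), as did day 7 replicate 5 or 6 for the first (0.0502 and 0.0622) and day 15 replicate 1 or 6 for the second (0.0513 and 0.11). SLC25A5, the carrier form known from dividing cells, was at 105, 62.1 and 129 TPM on day 0 against 23.0 to 35.9 on day 7 and 21.3 to 40.0 on day 15. It fell by 1.62 and by 1.69 (limma adjusted p = 0.00641 and 0.00367) and held in all 22 alternatives.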

How the data were processed

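RNA sequencing libraries of 9 left ventricle samples (3 per age) were used. The authors deposited 1 table of TPM values with a column per library; all columns were used and 4056 rows were 0 throughout. Per the submitters' processing notes, the tools were kallisto 0.43.1, HISAT2 2.0.5 and Trimmomatic 0.33, of unstated role and order. RNA came from frozen tissue and libraries from a stranded mRNA kit, per the labels' protocols. Genome build, annotation and strand setting are not stated there. TPM is a share of each library, so depth is unknown and no counting interval is given.

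Genes with at least 1 TPM in at least 3 libraries (12268) were taken to log2(TPM + 1), a scale that understates the change of low genes. limma 3.58.1 (R 4.3.3, trended empirical Bayes, 1 mean per age, 6 residual degrees of freedom) was fitted to all genes, with Benjamini-Hochberg adjustment over all of them and a threshold of 0.05. The limma step was tested on simulated data. Isoform ratios were tested by exact permutation. No column pair was identical.

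The members and lists were chosen with earlier results of these data known. Genes named with full values followed a rule: mitochondrial genes, CYCS, CYC1, isoform pairs and, per complex and comparison, the most abundant member and up to 3 called members with the smallest adjusted p (up to 2 in other lists). Members named outside the rule (NDUFS3, NDUFS6, NDUFS1, NDUFV2, NDUFB6, NDUFC2, SDHC, UQCRC1, UQCR10, COX5B, COX6C, COX7C, ATP5IF1 and the peripheral stalk genes) were chosen after their values were seen.

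Alternatives were pseudocounts of 0.1 and 5 TPM, a filter of 5 TPM on the mean or none, median-of-ratios and quantile scaling, totals without mitochondrial genes and the 20 most abundant rows or without the most abundant row, library weights, a fit that was robust or had no trend, a replicate block, a fit without the third age and each library left out. Adding the 6 subunits listed by identifier was chosen after seeing the data.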

Additional observations from a re-analysis of the deposited data

How the results depend on the processing

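The count of subunits called on day 7 against day 0 (10) ranged from 2 to 13 when 1 library was left out, and that on day 15 against day 0 (13) from 3 to 16; for day 15 against day 7 it stayed at 0, and for the first step minus the second it was 0 to 1. With library weights, which did not converge fully, 9 subunits were called between day 7 and day 15, 37 on day 15 against day 0 and 5 between steps. For the steps, median-of-ratios scaling gave 4 calls, and quantile normalization, totals without mitochondrial genes and the 20 most abundant rows, and totals without the most abundant row gave 2 each. With the replicate number as a block 5 subunits were called on day 7 and 4 on day 15 against day 0. The numbers are not shown to pair libraries: deviations of same-numbered libraries correlated at 0.00, 0.03, 0.10, -0.21 and 0.17, and ages share only 1 or 2 numbers.

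For the summed TPM of the mitochondrial genes, the log2 change on day 15 against day 0 (0.05) was 0.29 with median-of-ratios scaling and 0.30 with totals without mitochondrial genes and the 20 most abundant rows. For the summed TPM of the nuclear genes, the log2 change was -0.0900 on day 7 against day 0 (-0.26) with totals without mitochondrial genes and the 20 most abundant rows, and 0.26 on day 15 against day 7 (0.07) with median-of-ratios scaling. For the same nuclear sum on day 15 against day 0 (-0.20), the log2 change was 0.0451 with median-of-ratios scaling, 0.0591 with totals without mitochondrial genes and the 20 most abundant rows, and -0.0402 with totals without the most abundant row. With each library left out the sums ranged from -0.03 to 0.17, -0.15 to 0.10 and -0.06 to 0.19 (mitochondrial, in the order of the comparisons) and from -0.38 to -0.15, -0.05 to 0.18 and -0.24 to -0.15 (nuclear). The cause of these shifts was not tested. No isoform pair passed under any of 11 alternatives each. Depth is unknown, so no limit from counting can be given for COX7B2 or COX6B2.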
